A study of Mus musculus with 6 samples.

Results

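A set of 42 mouse genes of fatty acid oxidation and ketone body formation was examined, with the genes that feed fatty acids into these routes, store them or regulate them. The genes were listed by name, and all 42 were found by symbol among the 24786 symbols of the deposited counts. RNA was sequenced from wild-type (WT) mouse intestinal organoids, which are epithelial structures grown in culture from gut stem cells. The organoids were dissociated to single cells for 10 min. They were then kept for 16 h in control conditions, for which the sample titles name DMSO and the design text names control medium (3 libraries), or with 100 µM tyramine, an amine that bacteria make from tyrosine (3 libraries). The sources used here do not give whether the tyramine cultures also held DMSO. The labels give no strain, sex or gut segment, and nothing in them ties a replicate to a mouse or culture of its own. The p-values therefore reflect library-to-library spread, which may be technical.

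Cells burn long-chain fatty acids by activating them to acyl-CoA, carrying them into mitochondria as carnitine esters and shortening them in a repeating cycle of dehydrogenation, hydration, dehydrogenation and thiolysis, whose electrons reach the respiratory chain partly through the electron transfer flavoprotein. Peroxisomes run a parallel cycle that takes very long and branched chains and passes shortened products on. In the gut, enterocytes take up dietary fat, hold part of it in lipid droplets and oxidise part of it. Many of these genes are targets of the nuclear receptor PPAR alpha, and oxidation and ketone body formation have been linked to intestinal stem cell function.

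The libraries held 28316372 to 35035955 counts each. Of the values from 1 to 8 counts, 72.6% to 78.7% were even, so a count may not stand for 1 fragment, and the low counts printed below may overstate the number of fragments. Whether both mates of a read pair were counted was not tested. Levels are given in CPM, the count scaled to a common library size with a TMM factor that corrects for composition, in the order of replicates 1 to 3, and differences as log2 fold changes of tyramine minus control with their SE. A gene rose or fell where its Benjamini-Hochberg adjusted p was under 0.05 in edgeR's quasi-likelihood test over 12139 genes with enough counts. Markers of intestinal epithelium were present in both groups, with summed levels of 21536 to 23049 CPM in controls and 18477 to 20928 CPM with tyramine, led by Krt8. Of these 11 markers 5 fell (Vil1, Cdx2, Lgals4, Epcam and Krt19), 2 rose (Krt18 and Cdh1) and 4 did not pass the threshold. Markers of fibroblasts, immune cells and endothelial cells summed to at most 9.12, 9.57 and 2.61 CPM in any library. Of 6 hepatocyte markers only Ttr had enough counts to test, and their sum was 9.93 to 15.3 CPM in controls and 0.278 to 1.87 CPM with tyramine. Of 5 adipocyte markers only Cidec did, with sums of 54.1 to 57.8 and 52.4 to 77.8 CPM. Libraries of the tyramine group differed more from each other than those of the control group (pairs of libraries gave chi-squares of 53.8 to 101 per degree of freedom against 27.4 to 35.8).

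Most genes of fatty acid oxidation were lower after tyramine. All 42 had enough counts to be tested; 30 fell, 1 rose and 11 did not pass the threshold, where 13.3% of all genes tested fell, 12.5% rose and 25.8% did either. The median log2 fold change was -1.17 for the 42 genes and 0.00 for all genes tested. In 35 of the 42 genes every control library was above every tyramine library, which held for 23.6% of all genes tested, and in 1 gene, Plin2, every tyramine library was higher, which held for 20.9%. Falls of at least 2-fold numbered 20, against 9.10% of all genes tested. Summed over the 42 genes, the level was 7079, 6723 and 6553 CPM in the controls and 3175, 3126 and 2648 CPM with tyramine. The number that fell was 23 to 30 when any 1 library was left out. The members were chosen with earlier results of these data known. The shares of all genes are therefore given as description and do not test the list.

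In bulk RNA, fewer cells of a type and less RNA per cell cannot be told apart. Markers of mature enterocytes moved with these genes: all 12 of the listed markers fell, and their summed level was 17423 to 18427 CPM in controls and 3232 to 3257 CPM with tyramine, led by Apoa4. Of 7 markers of proliferating cells 6 fell, with sums of 2229 to 2711 against 167 to 188 CPM, led by Mki67. Of 6 squamous epithelium markers 4 were tested. Krt5 and Krt6a rose, Krt14 and Ivl did not pass the threshold, and Krt13 and Trp63 had too few counts to test. The sum of the 6 went from at most 3.36 to at least 455 CPM, led by Krt6a. Enteroendocrine markers (4 of 6 fell) summed to 1069 to 1074 against 318 to 496 CPM, led by Chgb, and goblet cell markers (3 of 5 tested fell) to 109.7 to 132 against 56.0 to 67.9 CPM, led by Fcgbp. The part of these shifts in the results below was not tested.

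**Figure D1:**
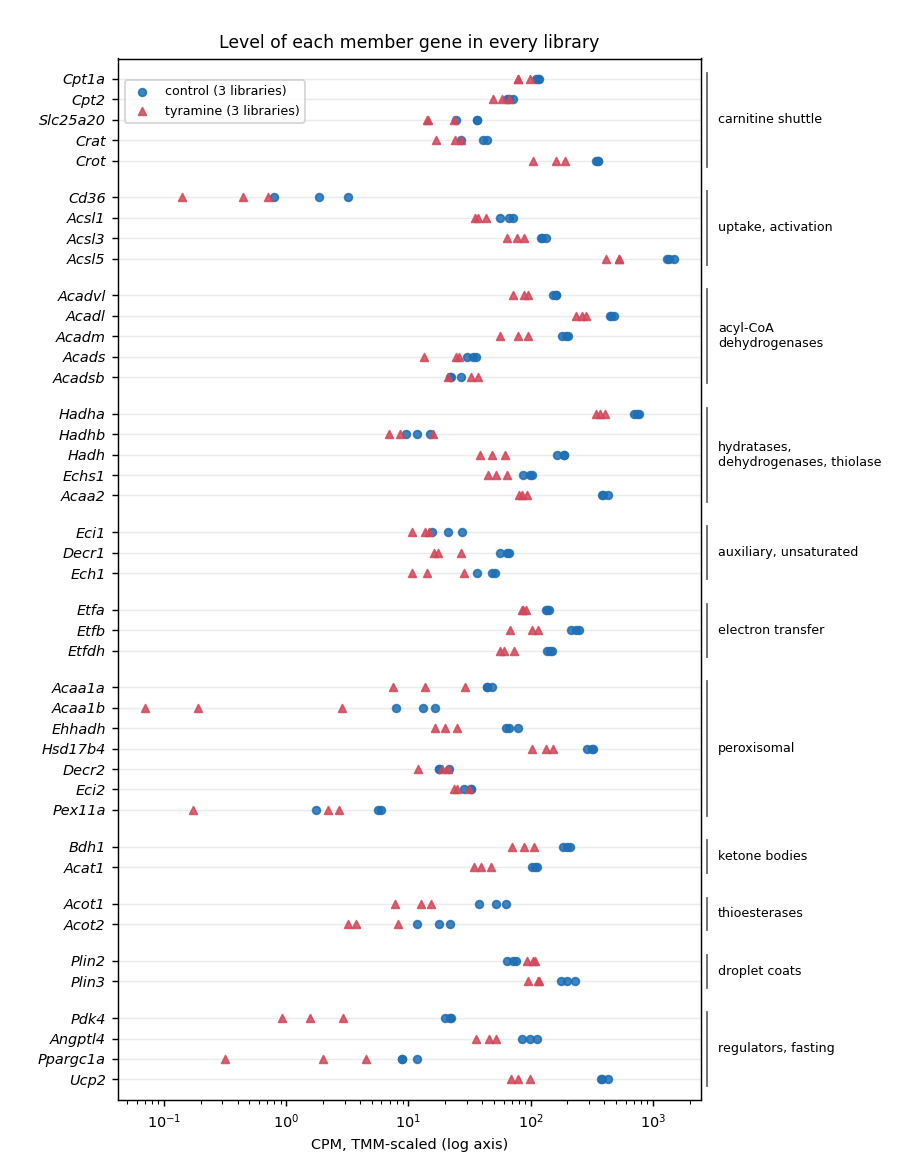
Level of each of the 42 genes in CPM (log axis) in the 3 control libraries (circles) and 3 tyramine libraries (triangles), ordered by role. In 35 rows the circles lie wholly to the right of the triangles, and in the row of Plin2 they lie wholly to the left.

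Uptake and activation. Acsl5, a long-chain acyl-CoA synthetase of the intestine, was the most abundant of the 42 genes, at 1494, 1367 and 1309 CPM in controls and 529, 529 and 412 CPM with tyramine. The 3 tyramine libraries all lay below the lowest control, and the fall was 2.83-fold (-1.50 on the log2 scale, SE 0.11; edgeR adjusted p = 1.2e-05). Acsl3, a synthetase tied to lipid droplet formation, stood at 123, 122 and 134 CPM against 63.7, 88.9 and 77.1 CPM and fell by less (log2 fold change -0.72, SE 0.15). Acsl1, the synthetase best known from liver and muscle, stood at 55.6, 66.3 and 72.1 against 34.8, 42.7 and 36.8 CPM and fell (log2 fold change -0.76, SE 0.18), a call lost without control replicate 2 or 3. The share of Acsl5 in the level per kb of exon summed over Acsl1, Acsl3, Acsl4 and Acsl5 went from 88.1% ± 1.24 (SD, n = 3, as for all shares below) to 81.5% ± 3.24, while that of Acsl3 went from 8.96% ± 0.870 to 14.3% ± 2.60. Cd36, a fatty acid transporter, was near the limit of detection, with 24, 68 and 92 counts in the controls and 20, 14 and 4 after tyramine. The 95% interval of its log2 fold change was wide (-4.73 to 0.36), and it did not pass the threshold (edgeR adjusted p = 0.2). The exons of Acsl3 lie on the same strand as the overlapping gene Utp14b, and 2.43% of the 100-base windows of Acsl3 transcripts also occur there, so their counts may not be fully separate.

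Carnitine shuttle. Cpt1a, the outer-membrane carnitine palmitoyltransferase that controls entry of long chains into mitochondria, had the smallest fall of the 30. Its level was 117, 109.7 and 114 CPM in controls and 79.3, 99.0 and 78.7 CPM with tyramine, and the groups did not overlap (log2 fold change -0.41, SE 0.13; edgeR adjusted p = 0.049). This call, the closest to the threshold among the 30, was lost in 8 of the 14 alternative settings, and its log2 fold change over the 14 ran from -0.52 to -0.35. Cpt2, its inner-membrane partner, had overlapping groups at 64.2, 71.8 and 66.2 CPM in controls and 66.4, 48.8 and 57.9 CPM with tyramine, with a log2 fold change of -0.22 (95% interval -0.59 to 0.14). Slc25a20, the carnitine-acylcarnitine carrier between these enzymes, stood at 36.6, 36.6 and 24.5 against 14.5, 23.6 and 14.3 CPM and fell 1.87-fold (edgeR adjusted p = 0.045), a call lost without any 1 library except tyramine replicate 2. Crot, the peroxisomal carnitine octanoyltransferase that exports shortened chains, fell more, from 339.7, 357 and 358 to 192, 162 and 104 CPM (log2 fold change -1.20, SE 0.19). The controls of Crot lay close together, and tyramine replicate 3 was the lowest library. Crat, carnitine acetyltransferase, ran from 26.8 to 43.6 CPM in controls and from 16.8 to 26.7 CPM with tyramine and did not pass the threshold (log2 fold change -0.72; edgeR adjusted p = 0.076), although it did without tyramine replicate 3 (edgeR adjusted p = 0.041). Of these 5 genes 3 fell, and 1 fell without any 1 control library or tyramine replicate 1.

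The 250 bases before the start of Cpt1a, at chr19:3323051-3323300 on the plus strand of GRCm38.p6 (RefSeq), are shown because Cpt1a is the entry step and because they hold 1 copy of AGGTCA, the core motif bound by nuclear receptors of the PPAR and retinoid families. The copy is on the opposite strand and is given in capitals as its complement. The start used is that of RefSeq. The GENCODE M21 model of Cpt1a starts earlier, at 3322334, so the stretch lies inside that model.
Cpt1a: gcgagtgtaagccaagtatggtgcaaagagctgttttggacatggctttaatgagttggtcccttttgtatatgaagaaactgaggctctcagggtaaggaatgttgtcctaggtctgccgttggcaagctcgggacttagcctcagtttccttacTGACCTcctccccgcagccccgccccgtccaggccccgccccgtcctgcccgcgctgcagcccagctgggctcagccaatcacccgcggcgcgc
AGGTCA on either strand was found in the 300-base window (250 bases before to 50 after the start) of 6 of the 36 member genes with a RefSeq promoter entry, namely Cpt1a, Cd36, Acadvl, Acadm, Echs1 and Plin2, and in 18.1% of all 27025 genes with an entry. Among these 36, 25 fell and 4 of those had a match. The paired form AGGTCANAGGTCA, a direct repeat with 1 base between the copies and itself containing the core motif, was found in none of the 36 windows and in 0.0481% of all genes. TGACTCA, bound by AP-1, was found in 2 (5.95% of all genes), and TGACNNNGC, the core of the antioxidant response element, in 2 (14.0% of all genes). No match says only that these letters are not in this window.

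Mitochondrial acyl-CoA dehydrogenases. These enzymes catalyse the opening step of each cycle and differ in chain length. Acadvl, for very long chains, stood at 163, 161 and 154 CPM in controls and 71.1, 88.8 and 94.9 CPM with tyramine. Acadl, for long chains, stood at 482, 442 and 457 CPM in controls and 262, 283 and 234 CPM with tyramine, and Acadm, for medium chains, at 179, 195 and 202 CPM in controls and 78.1, 94.6 and 56.0 CPM with tyramine. In all 3 every tyramine library was below every control. Acadm fell by 1.33 on the log2 scale (SE 0.18), Acadvl by 0.91 (SE 0.13) and Acadl by 0.82 (SE 0.10), with edgeR adjusted p-values of 0.00053, 0.00094 and 0.0003. Acads, for short chains, ran from 30.1 to 35.8 CPM in controls and from 13.3 to 26.0 CPM with tyramine, without overlap but not past the threshold (log2 fold change -0.65; edgeR adjusted p = 0.12). Acadsb, which acts on short branched chains from isoleucine, had a positive log2 fold change of 0.35 with overlapping groups (26.8, 21.8 and 22.1 against 32.2, 20.9 and 37.0 CPM; 95% interval -0.23 to 0.93). Per kb of exon, Acadl made up 64.5% ± 1.19 of the level of these 5 genes in controls and 66.7% ± 0.968 with tyramine, and the share of Acadm went from 13.8% ± 1.15 to 9.94% ± 1.69.

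Later steps of the mitochondrial cycle. Acaa2, the medium-chain thiolase that releases acetyl-CoA, had the smallest p of the 42 genes, at 433, 385 and 387 CPM in controls and 93.7, 79.8 and 84.3 CPM with tyramine (log2 fold change -2.23, SE 0.11; edgeR adjusted p = 8.8e-07). Hadh, the dehydrogenase for medium and short hydroxyacyl-CoA, stood at 187, 188 and 166 CPM in controls and 62.1, 38.3 and 48.6 CPM with tyramine, a fall of 3.63-fold. Echs1, the short-chain enoyl-CoA hydratase, stood at 103, 87.3 and 97.9 CPM in controls and 64.4, 52.3 and 44.5 CPM with tyramine, a fall of 1.79-fold. Hadha, the subunit of the trifunctional protein that carries hydratase and dehydrogenase activity, stood at 769, 742 and 702 CPM in controls and 408, 369.7 and 343 CPM with tyramine (log2 fold change -0.98, SE 0.095; edgeR adjusted p = 6.5e-05). The groups of all 4 genes were separate, and all 4 remained called in every one of the 14 alternative settings. Hadhb, which encodes the thiolase subunit of the same protein, stood apart: 15.1, 9.57 and 11.7 CPM in controls and 6.96, 15.8 and 8.53 CPM with tyramine, with overlap and a log2 fold change of -0.22 (95% interval -1.13 to 0.69). Per kb of exon its control level was 1.84 CPM against 84.4 CPM for Hadha. Another gene model, Gm13910, holds 14.8% of the 100-base windows of Hadhb transcripts and is not a row of the deposited counts. The level of Hadhb is therefore uncertain. The cause of its low level beside Hadha was not tested.

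Hadha and Hadhb start head to head, with 272 bases between their RefSeq starts. The 250 bases before the start of Hadhb lie inside that stretch (chr5:30155003-30155252, plus strand, GRCm38.p6) and are shown because both genes border them. They hold no AGGTCA, so none of the letters is in capitals.
Hadhb: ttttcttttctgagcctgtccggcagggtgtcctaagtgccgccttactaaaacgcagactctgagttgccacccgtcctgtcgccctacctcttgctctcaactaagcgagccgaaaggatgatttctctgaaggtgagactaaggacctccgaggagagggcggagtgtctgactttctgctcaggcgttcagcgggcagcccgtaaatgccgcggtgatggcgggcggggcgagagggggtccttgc

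Auxiliary enzymes and electron transfer. Unsaturated chains need isomerases and a reductase to enter the cycle. Decr1, the mitochondrial dienoyl-CoA reductase, stood at 63.6, 56.0 and 66.9 CPM in controls and 16.1, 27.1 and 17.4 CPM with tyramine, a fall of 3.08-fold (log2 fold change -1.62, SE 0.24). Ech1, a dienoyl-CoA isomerase, stood at 48.0, 50.9 and 36.6 CPM in controls and 14.1, 10.8 and 28.6 CPM with tyramine; tyramine replicate 3 was nearest to the controls, and the call (edgeR adjusted p = 0.018) was lost without control replicate 1 or 2 or tyramine replicate 1. Eci1, an enoyl-CoA isomerase, ran from 15.7 to 27.7 CPM in controls and from 10.7 to 14.8 CPM with tyramine and did not pass the threshold (log2 fold change -0.72; edgeR adjusted p = 0.12). All 3 genes of the electron transfer route fell. Etfa and Etfb encode the subunits of the flavoprotein that takes electrons from the dehydrogenases. Etfa stood at 141, 135 and 132 CPM in controls and 84.9, 91.5 and 86.4 CPM with tyramine. Etfb stood at 249, 213 and 233 CPM in controls and 114, 102 and 67.4 CPM with tyramine. Etfdh, the membrane dehydrogenase that passes the electrons to ubiquinone, stood at 145, 136 and 150.0 CPM in controls and 56.2, 73.0 and 60.2 CPM with tyramine. The log2 fold changes were -0.64 (SE 0.11) for Etfa, -1.30 (SE 0.18) for Etfb and -1.18 (SE 0.14) for Etfdh, and no library of 1 group reached the other. The gene model Gm45233 overlaps Etfb on the same strand and shares 35.8% of its 100-base windows, and it is not a row of the deposited counts.

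Across the 16 genes of the mitochondrial cycle, its auxiliary enzymes and electron transfer, 12 fell, 0 rose and 4 were not called. Of all genes tested, 13.3% fell and 12.5% rose. The median difference was -0.94 on the log2 scale for the 16 genes and 0.00 for all genes tested.

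**Figure D2:**
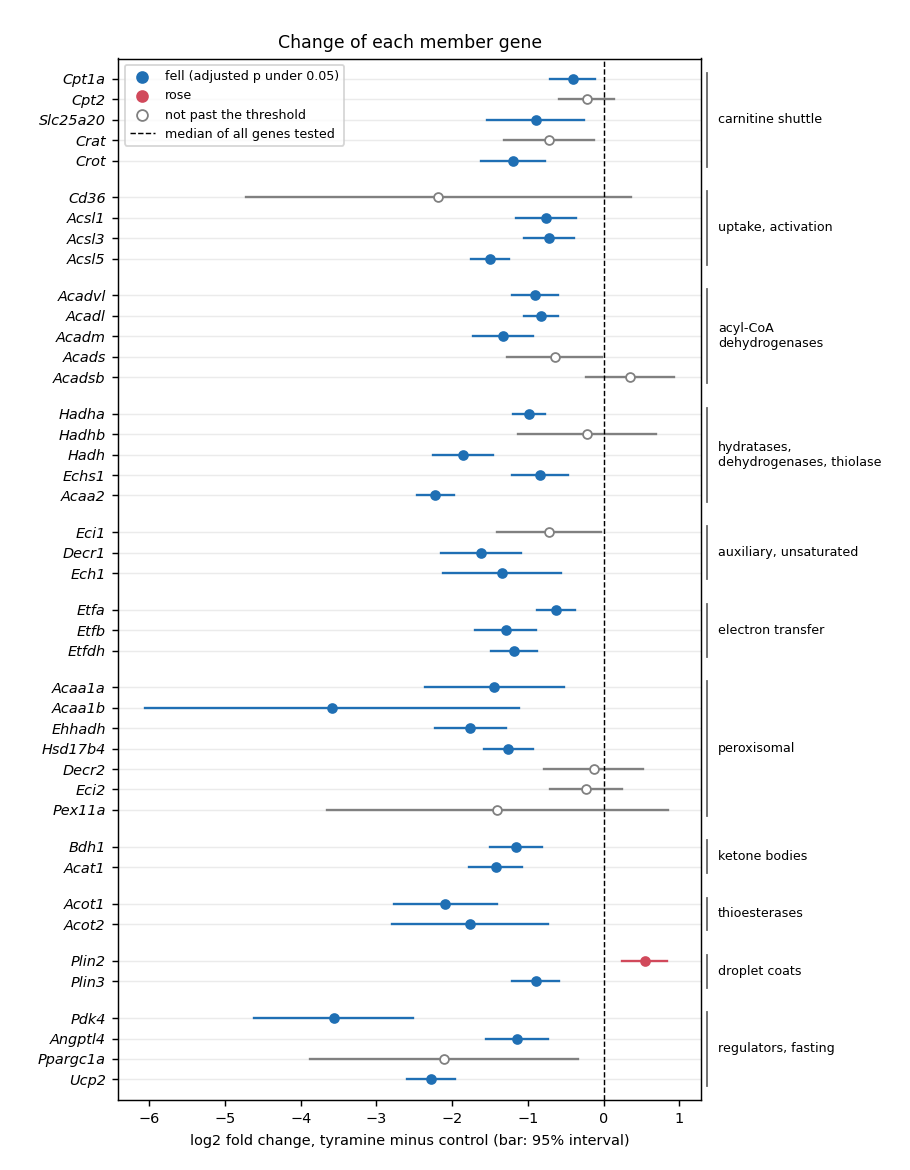
Log2 fold change of each of the 42 genes (tyramine minus control; point, with its 95% interval as a bar), ordered by role; the dashed line is the median of all 12139 genes tested, 0.00. Of the points 30 are blue (fell), 1 is red (Plin2, rose) and 11 are open (not past the threshold).

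Peroxisomal genes. Ehhadh, the bifunctional enzyme of the classical peroxisomal cycle, stood at 79.1, 67.1 and 62.5 CPM in controls and 25.1, 19.9 and 16.5 CPM with tyramine, a fall of 3.39-fold (edgeR adjusted p = 0.00025). Hsd17b4, the multifunctional enzyme that acts on branched and very long chains, stood at 316, 323 and 289 CPM in controls and 154, 132 and 102 CPM with tyramine, a fall of 2.39-fold. The peroxisomal thiolase genes Acaa1a and Acaa1b scattered among the tyramine libraries. Acaa1a stood at 43.5, 47.9 and 44.2 CPM in controls and 28.8, 13.7 and 7.41 CPM with tyramine. Acaa1b gave 499, 288 and 375 counts in the controls and 81, 6 and 2 counts with tyramine, a ratio of means of 12.0, and its log2 fold change over the alternatives ran from -6.53 to -3.04. Both calls (edgeR adjusted p = 0.027 for Acaa1a and 0.038 for Acaa1b) were lost without any 1 control library or without tyramine replicate 2, and that of Acaa1b also with no filter on low counts. Per kb, Acaa1b made up 37.7% ± 9.65 of the 2 genes' level in controls and 7.78% ± 9.10 with tyramine. The transcripts share 360 windows of 100 bases, 7.21% of those of Acaa1a and 19.3% of those of Acaa1b, so their counts are uncertain.

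The other peroxisomal genes did not pass the threshold. Decr2, the peroxisomal dienoyl-CoA reductase, stood at 17.7, 21.4 and 17.7 CPM in controls and 12.1, 18.7 and 21.0 CPM with tyramine (log2 fold change -0.13, 95% interval -0.78 to 0.52), and Eci2, an isomerase, at 32.7, 32.2 and 28.6 CPM in controls and 23.7, 24.9 and 31.2 CPM with tyramine (log2 fold change -0.23, 95% interval -0.70 to 0.25). The groups of both overlapped. Pex11a, a membrane protein of peroxisome division, reached 172, 219 and 50 counts in the controls and 76, 70 and 5 after tyramine, and the 95% interval of its log2 fold change was -3.66 to 0.84. Of the 7 genes 4 fell, and 2 fell without any 1 control library or without tyramine replicate 2. Of all genes tested, 13.3% fell.

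Ketone body genes. Both members fell with separate groups. Bdh1, which interconverts acetoacetate and hydroxybutyrate, stood at 198, 185 and 210.1 CPM in controls and 106, 88.1 and 70.7 CPM with tyramine (log2 fold change -1.16, SE 0.15). Acat1, the mitochondrial acetoacetyl-CoA thiolase, stood at 102, 113 and 109 CPM in controls and 38.9, 47.1 and 34.4 CPM with tyramine (log2 fold change -1.43, SE 0.16; edgeR adjusted p = 0.00015). Of the ketone body genes outside the member list, Aacs, a cytosolic acetoacetyl-CoA synthetase, fell (log2 fold change -0.76) and 4 did not pass the threshold. Aacs stood at 147, 135 and 129.9 CPM in controls and 81.2, 84.1 and 78.5 CPM with tyramine.

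Thioesterases. Acot1 (cytosol) and Acot2 (mitochondria) cleave acyl-CoA back to free fatty acid. Acot1 stood at 37.9, 62.9 and 51.8 CPM in controls and 12.6, 15.4 and 7.80 CPM with tyramine, a fall of 4.26-fold (edgeR adjusted p = 0.00081). Acot2 stood at 11.8, 22.0 and 17.8 CPM in controls and 3.74, 8.18 and 3.20 CPM with tyramine, a fall of 3.41-fold whose call (edgeR adjusted p = 0.019) was lost without control replicate 2 or 3 or tyramine replicate 1. In both genes control replicate 1 was the lowest control and replicate 2 the highest. The share of Acot1 in their level per kb was 62.6% ± 1.42 in controls and 58.2% ± 7.04 with tyramine, with overlap. These neighbouring copies share 9.32% of the windows of Acot1 and 17.1% of those of Acot2, so how their counts were divided is uncertain.

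Lipid droplet coats. The 2 perilipins moved in opposite directions. Plin2, the perilipin that coats droplets in most cells and is stabilised by them, was the only member that rose, from 71.7, 75.5 and 63.9 CPM in controls to 93.7, 109 and 105 CPM with tyramine (1.46-fold, which is 0.54 on the log2 scale with an SE of 0.13; edgeR adjusted p = 0.015). The groups did not overlap, and the call was lost without control replicate 1 or 3 (edgeR adjusted p up to 0.071 over the alternatives). Plin3, a perilipin that moves between cytosol and nascent droplets, fell from 233, 197 and 177 CPM to 114, 117 and 94.7 CPM (log2 fold change -0.90, SE 0.14; edgeR adjusted p = 0.0012). Plin2 made up 27.4% ± 2.23 of the level per kb of the pair in controls and 50.5% ± 3.76 with tyramine. An exact permutation test was run on each of 21 such shares of family level. With 3 libraries against 3 (20 permutations), it could give no p below 0.10. The shares of Acsl1, Acsl3, Acsl5, Plin2, Plin3, Acaa1a, Acaa1b, Pdk4, Acadl, Acadm and Acadsb each gave that smallest value. The two-sided p of this permutation test was 0.191 after Benjamini-Hochberg adjustment over the 21. Shares within a family sum to a fixed total, so the 21 are not independent. Plin2 and Plin3 mirror each other, as do Acaa1a and Acaa1b, and each pair is a single result.

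The 250 bases before the start of Plin2 (chr4:86670060-86670309, minus strand, GRCm38.p6, RefSeq) are shown because Plin2 was the only member that rose. The capitals mark the 1 copy of AGGTCA, which is on the opposite strand.
Plin2: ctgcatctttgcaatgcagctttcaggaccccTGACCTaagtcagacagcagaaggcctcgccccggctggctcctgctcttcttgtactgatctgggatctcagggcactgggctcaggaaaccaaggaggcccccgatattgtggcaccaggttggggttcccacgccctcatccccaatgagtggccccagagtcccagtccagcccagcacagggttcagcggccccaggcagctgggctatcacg

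**Figure D3:**
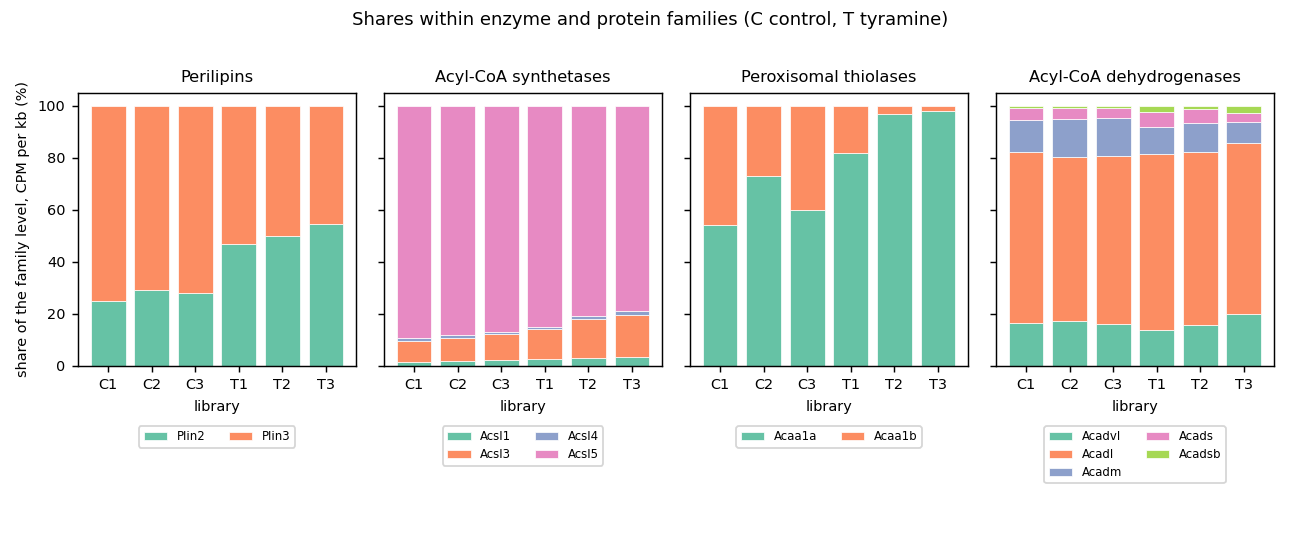
Share of each gene in the summed level per kb of exon (%) of its family, in control libraries C1 to C3 and tyramine libraries T1 to T3. Plin2 makes up 24.9% to 29.3% of the perilipin pair in controls and 47.0% to 54.4% with tyramine, and Acsl5 86.9% to 89.3% of the synthetases in controls and 78.7% to 85.1% with tyramine.

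Regulators and fasting-response genes. Pdk4, a kinase that inhibits pyruvate dehydrogenase when fat is burned, stood at 19.8, 22.4 and 21.7 CPM in controls. With tyramine it stood at 0.918, 1.57 and 2.89 CPM. Pdk4 had 601, 817 and 618 counts in controls against 26, 50 and 83. Its mean was 11.9-fold lower (fitted log2 difference -3.57, SE 0.47; edgeR adjusted p = 0.00048). Its share of the level per kb of Pdk1 to Pdk4 went from 43.7% ± 8.07 to 14.2% ± 6.68. Ucp2, a carrier of the mitochondrial inner membrane, stood at 432, 383 and 379 CPM in controls and 97.8, 78.6 and 68.7 CPM with tyramine (log2 fold change -2.28, SE 0.14). Angptl4, a secreted inhibitor of lipoprotein lipase induced by fasting and by PPARs, stood at 112, 98.8 and 84.1 CPM in controls and 51.6, 46.0 and 35.5 CPM with tyramine, a fall of 2.22-fold (edgeR adjusted p = 0.0014). Ppargc1a, the coactivator PGC-1 alpha, gave 271, 320 and 337 counts in the controls and 57, 143 and 9 with tyramine. Its groups did not overlap, but it did not pass the threshold (log2 fold change -2.11, SE 0.79; edgeR adjusted p = 0.08); it passed with DESeq2, with limma-voom and without tyramine replicate 2 or 3.

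The 250 bases before the start of Pdk4 (chr6:5496279-5496528, minus strand, GRCm38.p6, RefSeq) are shown because Pdk4 and Acaa1b had the largest falls of the 42 genes. They hold no AGGTCA and so no capitals.
Pdk4: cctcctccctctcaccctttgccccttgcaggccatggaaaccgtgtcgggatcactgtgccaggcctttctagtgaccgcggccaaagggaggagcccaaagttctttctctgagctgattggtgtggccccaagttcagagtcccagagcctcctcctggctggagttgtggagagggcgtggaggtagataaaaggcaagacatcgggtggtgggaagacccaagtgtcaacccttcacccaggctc

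Levels and spread among the 42 genes. Per kb of exon, the control levels ran from 0.546 CPM for Cd36 to 286 CPM for Acsl5, followed by Acaa2 (265), Acadl (229) and Etfb (199). With tyramine the order at the top changed, with Acadl at 129.5, Acsl5 at 101, Etfb at 81.1 and Acaa2 at 56.7 CPM per kb. The exon length joins all annotated transcripts, so levels per kb are approximate. By role, the median log2 fold change was -2.20 for regulators and fasting-response genes, -1.93 for thioesterases, -1.41 for peroxisomal genes, -1.34 for auxiliary enzymes, -1.29 for ketone body genes and -1.18 for electron transfer. It was -1.13 for uptake and activation, -0.98 for hydratases, hydroxyacyl-CoA dehydrogenases and thiolase, -0.82 for acyl-CoA dehydrogenases, -0.72 for the carnitine shuttle and -0.18 for the droplet coats, of which 1 rose and 1 fell. These roles hold 2 to 7 genes each and their differences were not tested.

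The tyramine libraries scattered more for these genes too. The coefficient of variation had a median of 8.04% over the 42 genes in controls and 20.4% with tyramine, and was larger with tyramine in 37 of 42 genes, against 73.5% of 12037 genes with a value in both groups. Tyramine replicate 3 was the lowest tyramine library for 24 of the 42 genes (57.1%), where it was lowest for 36.2% of all genes tested. Without it 30 of the 42 genes fell.

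Other genes of the pathway. Outside the 42 members, 109 of 127 listed pathway genes were tested; 27 fell, 5 rose and 77 did not pass the threshold, where 13.3% of all genes tested fell and 12.5% rose. Counts given below for other mitochondrial oxidation, for droplet and triglyceride genes and for peroxins lie near these shares or under them. Those for synthetases, carriers and thioesterases and for receptors and cofactors, rises and falls together, lie near the share of all genes called. That share was 25.8%. Taken apart, falls in these lists (4 of 17 and 4 of 18 tested) lie above 13.3%. Rises (1 of 17 and 1 of 18) lie under 12.5%. None of these counts is a result about its list. These lists, too, were chosen with earlier results of these data known. Leaving out 1 library gave 19 to 35 falling genes. Among 23 tested peroxisomal genes, 11 fell and Cat rose. Phyh, which starts the breakdown of phytanic acid, stood at 158, 157 and 140.3 CPM in controls and 38.5, 31.5 and 28.9 CPM with tyramine (log2 fold change -2.20, SE 0.15). Slc27a2, a very long-chain acyl-CoA synthetase, stood at 60.1, 61.1 and 59.6 CPM in controls and 10.4, 7.90 and 5.19 CPM with tyramine, and Ephx2, soluble epoxide hydrolase, at 118, 109 and 104 CPM in controls and 40.0, 33.6 and 40.0 CPM with tyramine. Cat, catalase, which removes hydrogen peroxide, rose from 181, 179 and 131 to 585, 621 and 620.0 CPM (3.72-fold; edgeR adjusted p = 7.6e-06). Of 15 tested peroxins, the factors that build peroxisomes, 1 fell, 1 rose (Pex6, log2 fold change 1.17) and 13 did not pass the threshold.

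Of 18 tested genes of other mitochondrial oxidation, Mut, Pccb and Acad11 fell (log2 fold changes -0.72, -1.03 and -1.50), and 0 rose. Mut and Pccb act in the breakdown of propionyl-CoA from odd and branched chains. Of 17 tested synthetases, carriers and thioesterases, 4 fell, among them Dbi, the acyl-CoA binding protein (411, 465 and 339.6 against 269, 215 and 160.3 CPM), Acsl4 and Acot11 (log2 fold changes -1.16 and -0.89 for the last pair), and Acot7 rose (log2 fold change 0.52). The call of Acot7 was lost without any 1 library except tyramine replicate 3 and with library totals alone, that of Acsl4 without any 1 control library and with the replicate number as a block, that of Acot11 without any 1 control library or tyramine replicate 1, and that of Acad11 without control replicate 1 or 3. Of 12 tested droplet and triglyceride genes, Dgat1, which makes triglyceride from diacylglycerol, stood at 50.6, 56.1 and 45.5 CPM in controls and 8.72, 16.0 and 17.8 CPM with tyramine and fell, as did Cideb (log2 fold change -2.11). Abhd5, the activator of the triglyceride lipase Pnpla2, rose from 21.0, 16.1 and 18.4 to 36.9, 42.4 and 33.3 CPM (log2 fold change 1.02, SE 0.22; edgeR adjusted p = 0.0078). Pnpla2 itself stood at 36.9, 34.3 and 38.1 CPM in controls and 48.7, 49.1 and 44.9 CPM with tyramine, with separate groups but no call (edgeR adjusted p = 0.13).

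Of 18 receptors, cofactors and related kinases, 4 fell, Sirt1 rose and 13 did not pass the threshold. Ppara, the receptor gene itself, had 30.8, 26.1 and 26.8 CPM in controls and 17.1, 5.60 and 31.8 CPM with tyramine, with overlap and tyramine libraries that scattered widely (edgeR adjusted p = 0.41, and 0.042 without tyramine replicate 3). Creb3l3, a transcription factor of the fasting response in liver and gut, fell from 197, 171 and 165 to 77.2, 74.8 and 54.2 CPM. Ppargc1b, a PGC-1 family coactivator, and Esrra, a receptor that acts with such coactivators, fell by 1.37 and 0.92 on the log2 scale. The call of Ppargc1b was lost without control replicate 2. Sirt1, a deacetylase that acts on PGC-1 alpha, rose from 7.28, 11.2 and 7.30 to 29.4, 30.2 and 58.8 CPM (log2 fold change 2.20, SE 0.35; edgeR adjusted p = 0.0013).

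**Figure D4:**
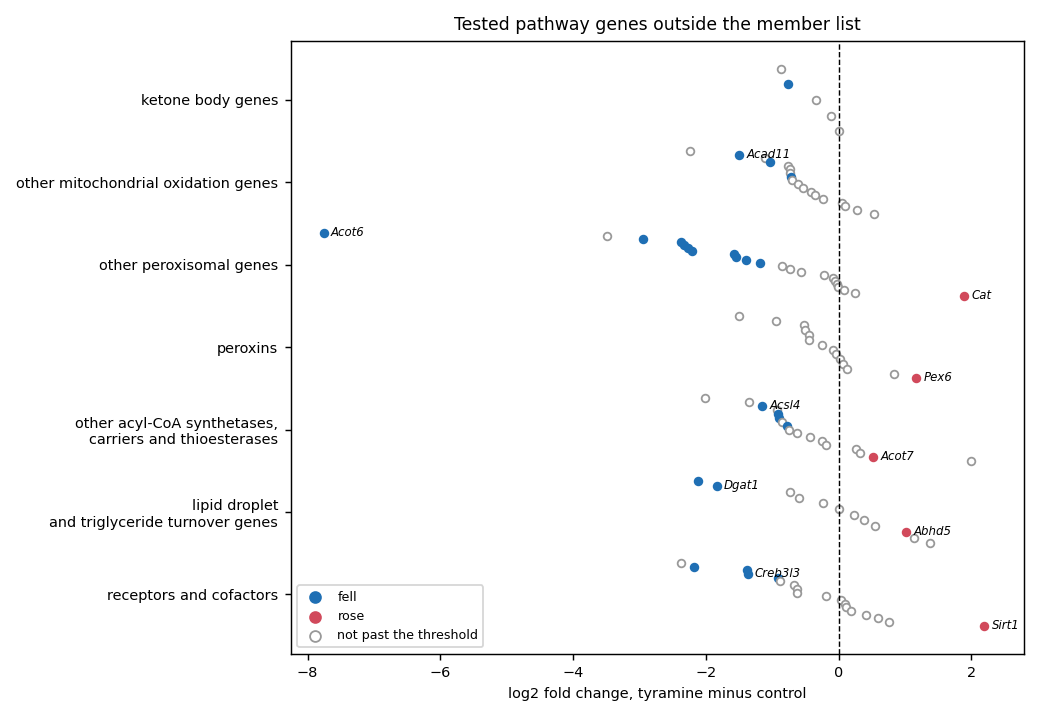
Log2 fold change (tyramine minus control) of 106 tested pathway genes outside the member list, by gene group; filled points passed the threshold (24 fell, blue; 5 rose, red), and 3 tested genes are not drawn. Cat lies at 1.90 and Sirt1 at 2.20; Acot6 had 0 counts in every tyramine library and is drawn at its fitted value, which is no bound.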

How the data were processed

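The RNA libraries were made with a stranded mRNA kit that carries molecular identifiers, per the labels' protocols. STAR 2.5.3a and mm10 are named in the submitters' processing notes; the sources used here do not give the counter, annotation, strand setting or use of the identifiers. The deposited values are whole-number counts per gene symbol and library; 2 names occur more than once and 26 read as dates. Genes were kept by filterByExpr (minimum count 10, minimum total 15), leaving 12139, and tested in R 4.3.3 with edgeR 4.0.16 (TMM, quasi-likelihood, group only), with Benjamini-Hochberg adjustment over all of them. DESeq2 1.42.0 and limma 3.58.1 served as alternatives. In counts simulated for 11699 genes of this comparison, 28.0% of 50 genes changed 2-fold and 74.0% of 50 changed 8-fold were called. Of 11405 unchanged genes, 15 were called. Genes given a change were a far smaller share there than the 25.8% called in the deposited counts. The same adjusted p therefore asked for a smaller p there. The share of such changes that is called in the deposited counts was not tested. CPM per kb used the union of exons of GENCODE M21. The members and lists were chosen with earlier results of these data known. Named were all members; from each pathway list up to 4 called genes of smallest p; Ppara and Pnpla2 whatever their values; and the most abundant gene of each marker list. Most low counts were even numbers (72.6% to 78.7% of values from 1 to 8), so counting intervals were not given. Some genes named by this rule are not reported here.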

Additional observations from a re-analysis of the deposited data

How the results depend on the processing

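Over 14 alternative settings, 23 of the 31 member calls were kept in all, each of them a fall. The number of members that fell was 28 to 31 with another scaling, filter, tool or the replicate block, and 23 to 30 without 1 library. Without 1 library, the counts over all genes were 934 to 1510.0 rising and 1035 to 1797 falling, members that rose 0 to 1, carnitine shuttle genes that fell 1 to 3, auxiliary enzymes 1 to 2, peroxisomal genes 2 to 4, thioesterases 1 to 2, and droplet coats that rose 0 to 1. Without tyramine replicate 1 the log2 fold change of Hadhb was 0.00 and that of Decr2 was 0.07 (over single libraries left out, from -0.65 for Hadhb and from -0.29 for Decr2), neither past the threshold in any setting; the cause was not tested. With library totals alone, the median of all genes was -0.08 and that of the members -1.26, and 40.4% of called genes rose against 48.5% with TMM. The titles number the replicates, but libraries with the same number did not deviate together (r = -0.019, -0.010 and 0.011 across genes). The numbers were therefore not taken as pairs. The highest r, that of tyramine replicate 1 with control replicate 2, was only 0.024 and ties no libraries together. With the replicate block, 29 members fell and 1 rose, and over all genes 1204 rose and 1390.0 fell. Depth limited genes with few counts, such as Cd36 and, with tyramine, Acaa1b.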
